A study of Mus musculus with 8 samples.

Results

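The sphingosine-1-phosphate system was followed in SV-LECs, a mouse lymphatic endothelial cell line, through 10 genes of its receptors, kinases, exporter, lyase and phosphatases. The members were the rows of the count table whose gene symbol was S1pr1, S1pr2, S1pr3, Sphk1, Sphk2, Spns2, Sgpl1, Sgpp1, Plpp1 or Plpp3, 10 of 55471 genes, and no member symbol occurred more than once. The line was isolated from mesenteric adventitial tissue and immortalized with SV40, and all libraries come from this line. It was either left without treatment or given TGFβ1 at 10 ng/ml for 72 h, and polyadenylated RNA was sequenced in 4 libraries per group. The study's methods call the libraries of a group technical replicates, so every SD and p-value here covers the spread between such libraries and not that between independent cultures.

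Sphingosine-1-phosphate (S1P) is a lysophospholipid that cells make by phosphorylating sphingosine, the backbone released when ceramide is cleaved. It leaves the cell through a transporter and acts on a family of G protein-coupled receptors, or it is removed by dephosphorylation back to sphingosine or by irreversible cleavage. Lymphatic endothelium is known as a source of the S1P in lymph, which guides lymphocytes out of lymph nodes, and in endothelial cells the receptors act on junctions, cytoskeleton and vessel stability.

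Total counts per library were between 18952504 and 26386941, and levels are given as CPM, the counts scaled to the TMM-normalized library size. A count of 3 in a library, the smallest level used as a floor, corresponded to 0.113 to 0.162 CPM, which covers counting error only. Of 8 TGFβ response genes, 7 were tested and 7 rose, among them Acta2, which encodes smooth muscle actin, with a log2 fold change of 1.89. By the same threshold 37.6% of all genes tested rose. The remaining gene of the list, Tgfbi, had at most 3 counts in every library and was not tested. Markers of the labelled cell type were checked as well. Among 7 lymphatic endothelial markers, Prox1, Lyve1, Ccl21a and Reln had at most 3 counts in every library, while Pdpn, Flt4 and Nrp2 were expressed. Among 10 endothelial markers, Cdh5, Tie1, Emcn and Erg had at most 3 counts in every library and Pecam1 had at most 5, whereas Esam had 53 to 84 counts, Egfl7 74 to 164, and Kdr stood at 11.6 ± 0.548 CPM in untreated and 22.1 ± 0.761 CPM in TGFβ1-treated cells (SD, n = 4). The other markers of this list were low, with at most 18 counts in any library. Prox1, the defining transcription factor of lymphatic endothelium, and Cdh5, the cadherin of endothelial junctions, were thus at or near 0, which goes against the label, while some markers of either list were expressed. The summed level of 9 fibroblast and mural markers was 605 to 642 CPM in untreated and 274 to 302 CPM in treated libraries. Of its 7 tested genes, 4 rose (Pdgfrb, Cspg4, Des and Myh11) and 3 fell (Dcn, Pdgfra and Thy1), beside 37.6% and 38.0% of all genes tested. Myh11 stood at 0.0964 to 0.480 CPM in untreated and 0.699 to 1.24 CPM in treated libraries. The filter on low counts asked for 0.477 CPM, so Myh11 passed it through the treated libraries and its rise is partly set by that. In group means Dcn went from 312 to 83.0 CPM and Pdgfra from 160 to 57.8 CPM, so the sum does not describe all of these markers. The part of the cells that express these markers in the changes of the members was not tested. Of 7 blood cell markers, 6 had at most 3 counts in every library, and the sum was 0.0482 to 0.101 CPM in untreated and 0.270 to 0.584 CPM in treated libraries. Because bulk RNA was measured, fewer expressing cells and less RNA per cell cannot be told apart for any gene below.

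All 10 members passed the filter on low counts. After TGFβ1, 3 of them rose (Sphk1, Plpp1 and Plpp3) and 2 fell (S1pr2 and Sgpp1) at a false discovery rate under 0.05. The edgeR FDR given below is the Benjamini-Hochberg adjusted p of the likelihood ratio test over all genes tested, and the quasi-likelihood FDR is that of edgeR's quasi-likelihood test. Across all 13818 genes tested, 75.6% passed the same threshold, 37.6% higher and 38.0% lower, beside 5 of 10 members. With libraries scaled by total counts, 4627 genes were higher and 5899 lower, against 5198 and 5251. The median log2 fold change was 0.12 over the members and -0.01 over all genes tested, and the median absolute log2 fold change was 0.32 against 0.39. Both member medians count Spns2, which passed the filter through the treated libraries. Among the other members the middle log2 fold change was that of S1pr3, at -0.02, so the medians show no shift of the members. The changes were uneven in size. Sphk1 rose 5.28-fold, whereas Sgpl1 and S1pr3 each had a log2 fold change of -0.02.

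**Figure D1:**
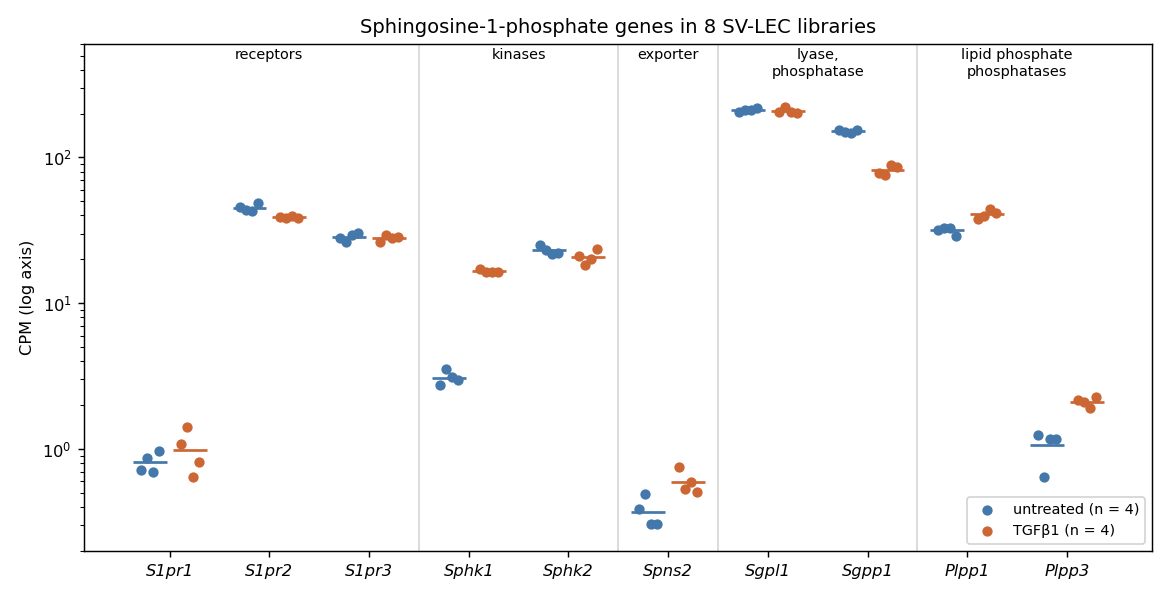
Level of each of the 10 members in the 8 libraries, in CPM on a log axis; points are libraries, horizontal lines are means of 4, and vertical lines part the genes by role. The 4 TGFβ1-treated libraries lie far above the untreated ones for Sphk1 (16.3 to 17.1 against 2.75 to 3.53 CPM) and below them for Sgpp1 (75.9 to 88.9 against 147 to 154 CPM).

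**Figure D2:**
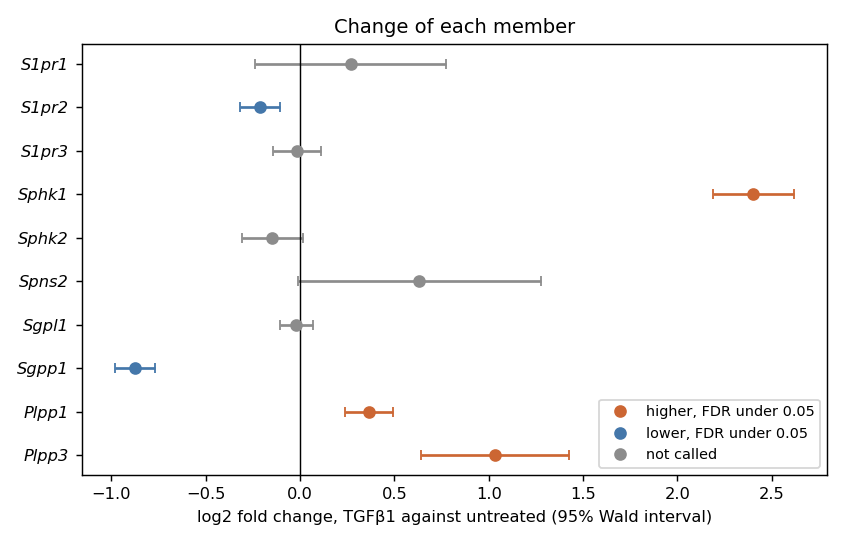
Log2 fold change of each member, TGFβ1-treated against untreated libraries, with 95% Wald intervals from edgeR's fit; orange and blue mark genes higher and lower at an FDR under 0.05, and grey marks genes that were not called. Sphk1, at 2.40, and Sgpp1, at -0.87, stand at the 2 ends.

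Sequences before an annotated start of the members with the largest rise and the largest fall are shown as the reference context of the changes described below. They were taken from RefSeq promoter windows on GRCm38.p6, which matched 8 of the 10 members, and were cut to the 250 bases before the annotated start. Of the 5 Sphk1 windows, the one printed holds no exon base of GENCODE M21, and it lies on the plus strand at chr11:116532194-116532443. This window lies inside the annotated gene, which spans 116530925 to 116536674. It therefore precedes an internal start and is not upstream of Sphk1 as a whole. The Sgpp1 window lies on the minus strand at chr12:75735730-75735979 and also holds no exon base.
Sphk1: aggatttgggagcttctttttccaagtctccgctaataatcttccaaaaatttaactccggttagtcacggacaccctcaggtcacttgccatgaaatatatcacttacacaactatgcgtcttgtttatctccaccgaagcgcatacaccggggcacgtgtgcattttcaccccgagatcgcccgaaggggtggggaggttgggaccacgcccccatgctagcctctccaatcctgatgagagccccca
Sgpp1: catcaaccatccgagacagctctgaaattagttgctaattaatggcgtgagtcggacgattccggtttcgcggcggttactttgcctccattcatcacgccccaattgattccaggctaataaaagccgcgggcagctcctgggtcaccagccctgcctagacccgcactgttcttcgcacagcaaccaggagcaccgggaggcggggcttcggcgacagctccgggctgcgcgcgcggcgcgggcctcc

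Both windows were searched on both strands for CAGAC, a core that SMAD proteins bind, for TGACTCA, the AP-1 consensus, and for GGGCGG, the core of GC boxes. None of the 3 motifs occurred in these letters, so no base is printed in capitals. Among all 32851 promoter windows of the same length, 42.2% held CAGAC, 4.46% held TGACTCA and 32.7% held GGGCGG. Among the members, the AP-1 consensus was found at 1 position, in overlapping windows of Sphk1, at chr11:116531787-116531793 and within annotated exon bases. It is shown with 10 bases on each side and lies on the minus strand, so the capitals mark its reverse complement.
Sphk1 AP-1 match: agcgtgtcgcTGAGTCAccttctcgga
Among the other windows, CAGAC occurred in 1 of Sphk1 and that of S1pr3, and GGGCGG in those of Sphk2, Sgpl1 and S1pr3. A match is a description of letters only, and binding was not measured in these samples.

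Of the receptors, S1pr2 fell slightly and neither S1pr1 nor S1pr3 was called. S1pr1 couples to Gi proteins and is the receptor known for barrier function and vessel stability in endothelium. In untreated libraries S1pr1 stood at 0.723, 0.864, 0.699 and 0.964 CPM, and in TGFβ1-treated libraries at 1.08, 1.41, 0.640 and 0.815 CPM. These values rest on 13 to 29 counts per library, and the groups overlapped at both ends. Its log2 fold change was 0.27 (SE 0.26, 95% interval -0.24 to 0.77, edgeR FDR = 0.338), so a rise of up to 1.71-fold lies within the interval.

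S1pr2, which signals through G12/13 and is known for restraining migration, stood at 45.5, 43.8, 43.1 and 48.3 CPM in untreated libraries. With TGFβ1 it stood at 39.2, 38.6, 39.5 and 38.4 CPM. Every treated library lay below every untreated one, although the drop was small. This was a log2 fold change of -0.21 (SE 0.05, edgeR FDR = 0.000117, quasi-likelihood FDR = 0.000678).

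S1pr3, which couples to Gi, Gq and G12/13, stood at 28.1, 26.1, 29.3 and 30.5 CPM in untreated libraries and at 26.2, 29.5, 27.9 and 28.6 CPM with TGFβ1. The groups overlapped almost completely. S1pr3 had a log2 fold change of -0.02 with a 95% interval from -0.14 to 0.11 (edgeR FDR = 0.806). The other receptor genes of the family had low counts. S1pr5 went from 1.21 ± 0.107 to 0.896 ± 0.108 CPM (SD, n = 4) without passing the threshold (log2 fold change -0.44, edgeR FDR = 0.0564), although it passed without TGFβ1-treated replicate 3 (edgeR FDR = 0.0431) and with total-count scaling (edgeR FDR = 0.0267), and S1pr4 had at most 1 count in any library.

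Levels of different genes were compared per length, as CPM per kilobase of the longest annotated transcript. On this scale S1pr2 made up 51.5% ± 1.27 and S1pr3 46.5% ± 1.44 (SD, n = 4) of the summed level of S1pr1, S1pr2 and S1pr3 in untreated cells, and S1pr1 made up 1.70 to 2.18% in single libraries. With TGFβ1 the shares were 48.0% ± 1.58 for S1pr2, 49.5% ± 1.37 for S1pr3 and 1.66 to 3.54% for S1pr1. The share of S1pr2 was lower in every treated than in every untreated library, whereas the shares of S1pr1 and S1pr3 overlapped between groups. In untreated cells the order of S1pr2 and S1pr3 depended on the length used, since with the union of all exons S1pr3 held 51.8% and S1pr2 46.0%. In treated cells S1pr3 had the higher mean with either length, at 54.7% with the union of all exons.

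**Figure D3:**
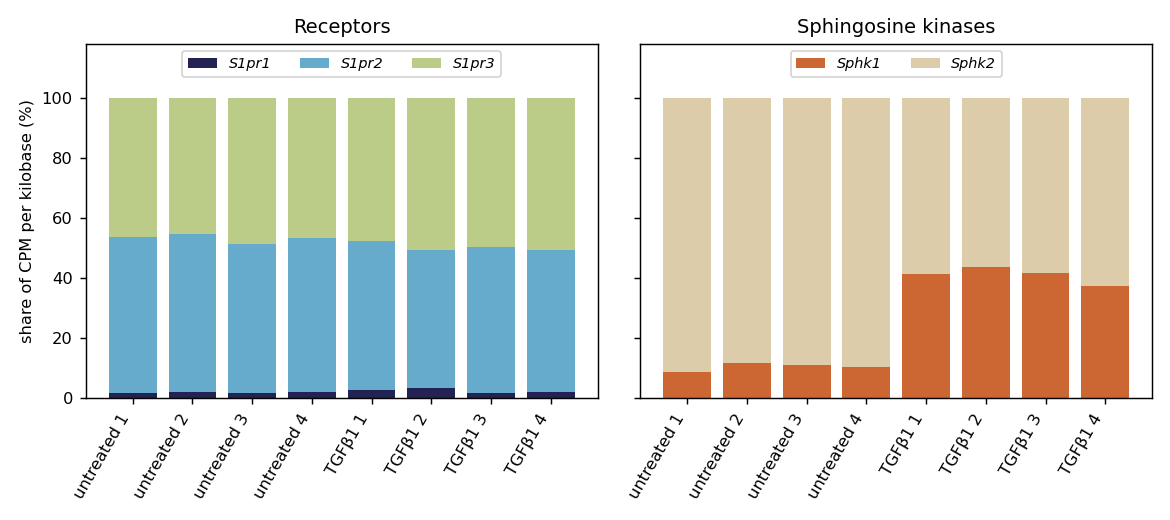
Shares of CPM per kilobase in each of the 8 libraries, in percent; left, S1pr1, S1pr2 and S1pr3 of their sum, right, Sphk1 and Sphk2 of their sum. The receptor shares differ little between groups, and the share of Sphk1 goes from 8.74 to 11.7% in untreated to 37.6 to 43.7% in TGFβ1-treated libraries.

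The kinases behaved differently from each other. Sphk1 encodes the mainly cytosolic sphingosine kinase that can be recruited to the plasma membrane and that makes much of the S1P used in signalling. It stood at 2.75, 3.53, 3.10 and 2.99 CPM in untreated libraries and at 17.1, 16.3, 16.3 and 16.3 CPM with TGFβ1, from 57 to 94 and from 316 to 421 counts. The lowest treated library was far above the highest untreated one, and the 4 treated libraries differed little from each other. On the log2 scale the rise was 2.40 (SE 0.11, edgeR FDR = 1.92e-125, quasi-likelihood FDR = 9.34e-12), a 5.28-fold rise with a 95% interval of 4.56 to 6.13. Only 359 of the 13818 genes tested had a larger log2 fold change. The gene lies on the plus strand of chromosome 11, from 116530925 to 116536674 of GRCm38. An antisense transcript, Gm29292, covers 4.02% of its exon bases and stood at 0.0591 CPM in untreated and 0.227 CPM in treated cells.

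Sphk2 encodes the kinase found in nucleus and mitochondria. It stood at 25.1, 23.2, 21.8 and 22.2 CPM in untreated libraries and at 21.1, 18.3, 20.0 and 23.7 CPM with TGFβ1, with the groups overlapping. Its log2 fold change was -0.15 (95% interval -0.31 to 0.01, edgeR FDR = 0.0940). Without TGFβ1-treated replicate 4, the highest treated library, it was -0.22 (edgeR FDR = 0.00771), and with libraries scaled by total counts it was -0.21 (edgeR FDR = 0.0133). Without TGFβ1-treated replicate 2 it was -0.09 (edgeR FDR = 0.313), so the value for Sphk2 rests on single libraries. Exons of Dbp and Rpl18 on the opposite strand cover 13.0% and 8.97% of its exon bases, and Dbp had a log2 fold change of -1.13. Whether strand was used in counting is not given in the sources used here, and the part of these genes in the counts of Sphk2 was not tested.

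Per kilobase, the ratio of Sphk1 to Sphk2 was 0.118 ± 0.0158 in untreated and 0.700 ± 0.0723 in TGFβ1-treated cells (SD, n = 4), with no overlap between the groups. The share of Sphk1 in the summed kinase level accordingly went from 10.5% ± 1.28 to 41.1% ± 2.55. The longest Sphk1 transcript is not annotated as coding. With the longest coding transcript instead, the ratio was 0.180 in untreated and 1.07 in treated cells, so the order of the kinases after TGFβ1 depended on the length chosen, whereas the order in untreated cells did not.

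Spns2, the transporter that exports S1P from endothelial cells, had the lowest level per kilobase of the 10 members. It stood at 0.385, 0.488, 0.306 and 0.304 CPM in untreated libraries and at 0.757, 0.536, 0.590 and 0.505 CPM with TGFβ1, which is 6 to 14 counts per library. The groups did not overlap in CPM, with a gap only from 0.488 to 0.505. Their raw counts did overlap, at 6 to 13 in untreated and 11 to 14 in treated libraries. Spns2 passed the filter on low counts through the treated libraries, in which 4 of 4 reached the level required, against 1 of 4 untreated ones, and a separation of the groups is partly set by that. Spns2 had a log2 fold change of 0.63 (SE 0.33, 95% interval -0.01 to 1.27, edgeR FDR = 0.0640). Leaving out untreated replicate 2, the highest of its group, gave 0.81 (edgeR FDR = 0.0365), whereas leaving out TGFβ1-treated replicate 1 gave 0.51 (edgeR FDR = 0.177). Of the other genes that carry S1P across or outside membranes, Abcc1, an ABC transporter able to export it, had a log2 fold change of 0.06 and was not called (edgeR FDR = 0.248). Mfsd2b, the exporter of red cells and platelets, had 8 to 13 counts per library, and Apom, the S1P carrier of HDL, had 0 to 2 in untreated and 2 to 7 in treated libraries, and both were removed by the filter. Fitted without a filter, Apom had a log2 fold change of 2.28 (edgeR FDR = 0.00683) and Mfsd2b one of 0.27 (edgeR FDR = 0.505).

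Sgpl1 and Sgpp1, whose enzymes remove S1P inside the cell, had the highest levels per kilobase in untreated cells, and they parted after TGFβ1. Sgpl1, the lyase that cleaves S1P irreversibly at the endoplasmic reticulum, stood at 204, 210, 213 and 219 CPM in untreated libraries and at 205, 222, 206 and 201 CPM with TGFβ1. The groups overlapped over their whole range. The log2 fold change was -0.02 with a narrow 95% interval from -0.11 to 0.07 (edgeR FDR = 0.687). Aldh3a2, which oxidizes the aldehyde that the lyase releases, had a log2 fold change of -0.09 (edgeR FDR = 0.0342). This call was lost without TGFβ1-treated replicate 1 or 4 or untreated replicate 2, 3 or 4, with edgeR FDRs of 0.0510 to 0.124, and with a filter of 1 CPM, DESeq2's size factors, the replicate block and a threshold of 0.01.

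Sgpp1, the endoplasmic reticulum phosphatase that returns S1P to sphingosine for ceramide synthesis, stood at 154, 149, 147 and 153 CPM in untreated libraries. With TGFβ1 it stood at 78.5, 75.9, 88.9 and 85.4 CPM. The untreated libraries lay close together and well above all treated ones. The log2 fold change was -0.87 (SE 0.05, edgeR FDR = 4.00e-60, quasi-likelihood FDR = 5.90e-10), so the level was 1.83-fold lower, and 8.27% of the genes tested had a lower log2 fold change. The gene lies on the minus strand of chromosome 12, from 75714249 to 75735729 of GRCm38, and no exon of another annotated gene overlaps its exons. Sgpp2, its paralogue, had 8 to 18 counts in untreated and 2 to 7 in treated libraries and was removed by the filter. Fitted without a filter it had a log2 fold change of -1.59 (edgeR FDR = 5.52e-05).

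Per kilobase, Sgpl1 and Sgpp1 were nearly level in untreated cells, with a ratio of 1.07 ± 0.0443, and the ratio was 1.95 ± 0.216 with TGFβ1 (SD, n = 4). The groups did not overlap. With the union of all exons as length the ratios were 1.29 and 2.35.

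Plpp1 and Plpp3 encode lipid phosphate phosphatases with the active site facing the cell exterior, which dephosphorylate S1P and lysophosphatidic acid. Plpp1 stood at 31.9, 33.0, 32.7 and 28.8 CPM in untreated libraries and at 37.8, 39.8, 43.9 and 41.5 CPM with TGFβ1. The groups were separate by a margin similar to the spread within each. The log2 fold change was 0.37 (SE 0.06, edgeR FDR = 2.70e-08, quasi-likelihood FDR = 4.78e-05). Exons of Mtrex, an RNA helicase gene on the opposite strand, cover 25.8% of the exon bases of Plpp1. Mtrex stood at 134 CPM in untreated and 92.9 CPM in treated cells, and its part in the counts of Plpp1 was not tested.

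Plpp3, which is known for limiting inflammation and permeability in blood vessels, stood at 1.25, 0.639, 1.18 and 1.17 CPM in untreated libraries and at 2.16, 2.09, 1.92 and 2.29 CPM with TGFβ1. All treated libraries were above all untreated ones, with 39 to 59 counts against 17 to 27. The log2 fold change was 1.03 (SE 0.20, edgeR FDR = 2.72e-07, quasi-likelihood FDR = 0.000241). It was 0.82 without untreated replicate 2, the lowest library. Plpp3 remained far below Plpp1 per kilobase, with a ratio of Plpp1 to Plpp3 of 64.0 ± 25.5 in untreated and 38.3 ± 4.82 in treated cells (SD, n = 4). Plpp2, the remaining close relative, stood at 20.8 ± 0.542 and 21.6 ± 1.37 CPM and was not called (log2 fold change 0.06, edgeR FDR = 0.435).

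In order of level per kilobase, untreated cells had Sgpl1 at 48.5 ± 1.45, Sgpp1 at 45.4 ± 1.11 and Plpp1 at 19.8 ± 1.22 CPM per kilobase (SD, n = 4). S1pr2, Sphk2 and S1pr3 followed between 6.39 and 7.06, and each overlapped with the next. Sphk1 at 0.761, Plpp3 at 0.335, S1pr1 at 0.267 and Spns2 at 0.114 CPM per kilobase came last, of which Plpp3 and S1pr1 overlapped. With TGFβ1 the order was led by Sgpl1 at 47.9 ± 2.16, and Plpp1 and Sgpp1 overlapped at 25.5 ± 1.64 and 24.7 ± 1.81. S1pr3, S1pr2 and Sphk2 again overlapped, at 5.86 to 6.29, with Sphk1 below them at 4.06 ± 0.0965. This order depended on the length. With the longest coding transcript Sphk1 stood at 6.21 ± 0.147 in treated cells, within the range of those 3 genes. With the union of all exons Plpp1 at 23.3 ± 1.49 no longer overlapped with Sgpp1 at 14.5 ± 1.07. By that length S1pr3 at 6.29 ± 0.309 also lay above S1pr2 at 4.88 ± 0.0617 and Sphk2 at 5.00 ± 0.546, without overlap.

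Apart from Spns2, groups did not overlap in 5 of the 10 members, 3 higher and 2 lower. These were the called members S1pr2, Sphk1, Sgpp1, Plpp1 and Plpp3. Across all genes tested, groups did not overlap in 69.8%, 34.7% higher and 35.1% lower. Spns2 is left out of this count, because it passed the filter through the group in which it was high. The quasi-likelihood test and DESeq2 called the same 5 members as the likelihood ratio test, each with the same sign.

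Genes around the members were taken from 6 lists of S1P, sphingolipid, G protein and lysophosphatidic acid genes. Of 75 such genes in the table, 61 were tested, 26 rose and 17 fell, with a median log2 fold change of 0.06. Across all genes tested 75.6% were called, so these counts lie near the background and say nothing particular about the lists. In all, 9 of the 75 had at most 3 counts in every library (S1pr4, Acer1, Sptlc3, Sptssb, Degs2, Ugt8a, Lpar3, Lpar5 and Plpp4). Of 8 other S1P genes, 4 were tested, none rose and 1 (Aldh3a2) fell. The number that fell was not stable, at 0 to 3 with 1 library left out, 2 with total counts or DESeq2 and 0 with the replicate block, and 1 rose without the filter.

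Ceramidases release sphingosine, the substrate of the kinases. Of 5 in the table, 4 were tested, 1 rose and 1 fell. Acer2, the ceramidase of the Golgi, stood at 1.73, 1.69, 1.79 and 1.42 CPM in untreated libraries and at 5.57, 8.28, 7.43 and 6.21 CPM with TGFβ1. It rose 4.12-fold with no overlap between groups (log2 fold change 2.04, SE 0.17, edgeR FDR = 1.40e-34). Asah1, the acid ceramidase of lysosomes, stood at 269 ± 7.79 and 268 ± 6.74 CPM (SD, n = 4) and was not called. Acer3 fell by 0.20 on the log2 scale. With total-count scaling 1 ceramidase was higher and 2 were lower.

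Of 16 genes of ceramide synthesis in the table, 12 were tested, 6 rose and 3 fell, with a median log2 fold change of 0.16. With total-count scaling the split was 6 higher and 5 lower. Kdsr, the reductase of the early pathway, had a log2 fold change of 0.72, and Cers6, a ceramide synthase with a preference for C16 acyl chains, one of 0.68. Ormdl3, which restrains serine palmitoyltransferase, rose by 0.53, whereas Sptssa, a small activating subunit of the same enzyme, fell by 0.65 on the log2 scale.

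Of 16 genes of sphingomyelin, glucosylceramide and ceramide phosphate metabolism, 15 were tested, 8 rose and 3 fell, with a median of 0.18. Smpd3, a neutral sphingomyelinase that makes ceramide from sphingomyelin, stood at 294, 287, 291 and 255 CPM in untreated libraries and at 91.3, 78.5, 98.6 and 94.2 CPM with TGFβ1. It had the largest fall of the 6 lists among the genes tested (log2 fold change -1.64, SE 0.07, edgeR FDR = 8.65e-126). Smpdl3b rose by 0.89, and Galc, the lysosomal galactosylceramidase, fell by 0.67 on the log2 scale.

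Of 20 genes for G proteins and effectors of the S1P receptors, 20 were tested, 8 rose and 6 fell, with a median of 0.02. Gnai1, 1 of 3 Gi subunits in the list, fell from 58.4 ± 2.93 to 24.2 ± 2.33 CPM (SD, n = 4, log2 fold change -1.27), while Gnai2 rose by 0.30 and Gnai3 was not called (log2 fold change -0.01). Rhoa, the GTPase downstream of G12/13, fell by 0.41 on the log2 scale. Tiam1, a Rac exchange factor, and Plcb3, a phospholipase C downstream of Gq, rose by 0.53 and 0.50.

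Lysophosphatidic acid is the other lysophospholipid that the enzymes of Plpp1 and Plpp3 act on. Of 10 genes in this list, 6 were tested, 3 rose and 3 fell, with a median of -0.03. Among its receptors, Lpar1 fell by 0.57 and Lpar4 by 0.96 on the log2 scale, and Lpar6 rose by 0.92. Plpp5, a further phosphatase of the family, rose by 0.67.

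**Figure D4:**
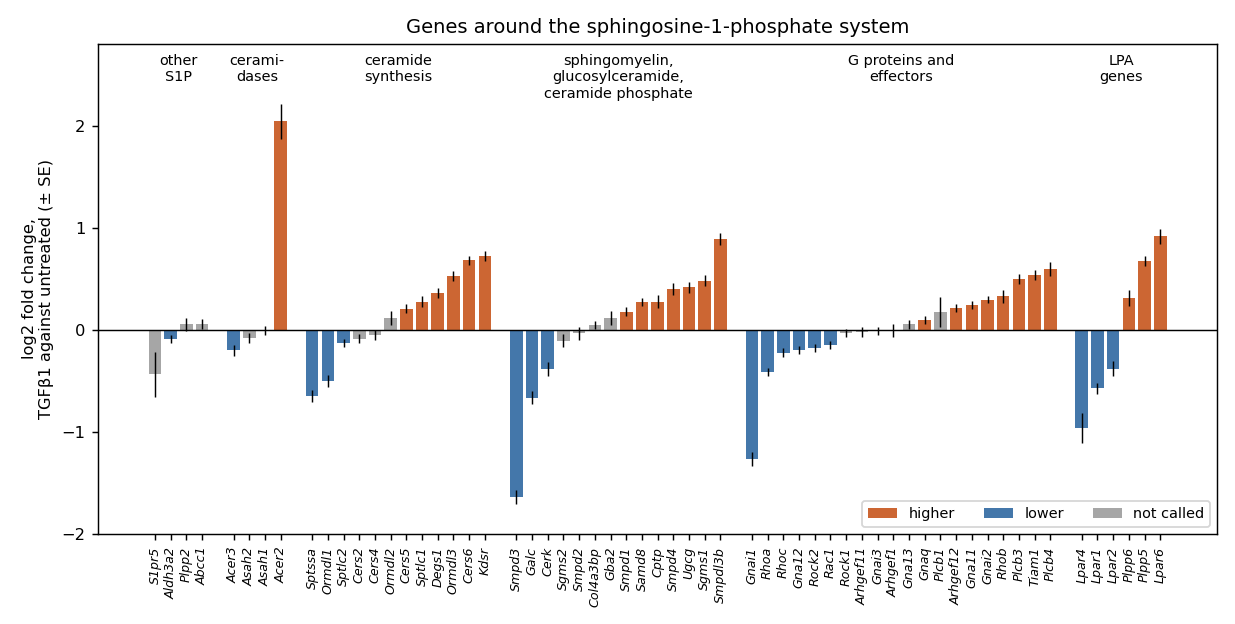
Log2 fold change of 60 of the 61 tested genes in 6 lists around the S1P system, TGFβ1-treated against untreated libraries, as bars with the SE of the fit; orange and blue mark genes higher and lower at an FDR under 0.05 and grey marks genes not called. Acer2 at 2.04 and Smpd3 at -1.64 are the extremes, and each list from the ceramidases on holds genes in both directions.

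The genes most like Sphk1 over the 8 libraries, by Pearson correlation of log2 CPM, were Zc3h12a, Cd200 and Cmah (r = 0.999 for each), and those most like Sgpp1 were Fadd, Pard6b and Eif1ax (r = 0.998 for each). Since the 8 points are 2 groups of 4, such values mainly record a change between groups in the same direction, and 2615 genes had an r above 0.95 with Sphk1 and 2417 with Sgpp1.

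In the genome the members lie on 8 chromosomes. Sphk1 and Spns2 are on chromosome 11 and S1pr3 and Plpp1 on chromosome 13 of GRCm38. S1pr1, S1pr2 and S1pr3 share a structure in which 1 of the 2 exons of the longest transcript holds the coding sequence, while Sgpl1 and Spns2 have 13 and 12 coding exons. No member shared more than 0.0475% of its stretches of 75 bases, the read length, in sense with another gene, and no 2 members shared such a stretch.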

How the data were processed

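The authors prepared stranded poly(A) libraries, aligned single-end reads of 75 bases to GRCm38 and deposited raw counts per gene, without normalization. The submitters' processing notes list bcl2fastq 2.20.0.422, STAR 2.7.3a and featureCounts 1.5.1. The annotation release and strand setting are not given in the sources used here. The counts were fitted by edgeR 4.0.16 under R 4.3.3 with filterByExpr, TMM, estimateDisp, glmFit and glmLRT without a replicate term, as the study's methods name the likelihood ratio test and an FDR under 0.05, with Benjamini-Hochberg adjustment over 13818 genes. SEs come from the information of the fit, and 95% intervals are 1.96 SE on either side. The steps were tested on simulated data with a far smaller share of changed genes than the 75.6% called here. How they behave at so large a share was not tested.

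Alternatives were edgeR's quasi-likelihood test, DESeq2 1.42.0, other scalings and filters, an FDR of 0.01, a replicate block and each library left out. For gene levels, 2 other lengths were used, of which the longest coding transcript, and the use of both for the order of levels, were added after seeing the data. For 12 pairs of libraries within groups, chi-square over its degrees of freedom was 2.37 to 7.84 over genes with at least 20 counts, so none agreed within sampling noise. Positions and lengths came from GENCODE M21, which matched 55144 of 55471 genes, and promoters from RefSeq on GRCm38.p6.

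The members and lists were chosen with earlier results of these data known. The text names all members, all other S1P genes, up to 4 genes per list by likelihood ratio statistic, genes with at most 3 counts in every library, 3 genes most like the member with the largest rise and the largest fall, and markers. Gnai2, Gnai3 and Asah1, and the genes that overlap members, were named after their values were seen. The symbols Cers1, Cert1 and Hbb-bs matched no row. Epithelial markers summed to 5.53 to 9.35 CPM in untreated and 8.03 to 10.0 CPM in treated libraries, where Krt8 and Krt18 were higher (log2 fold changes 1.99 and 2.47) and Krt19 lower (-0.31). Krt8 and Krt18 had only 2 to 35 and 2 to 47 counts per library. Krt18 stood at up to 0.385 CPM in untreated libraries and reached the filter level of 0.477 CPM only with TGFβ1. Krt8 stood at 0.101 to 0.524 CPM in untreated libraries, with a mean of 0.273 CPM, and at 0.876 to 1.36 CPM with TGFβ1. Both genes thus passed the filter through the treated libraries, and their rises are partly set by it. Some genes that the rule names are not reported here.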

Additional observations from a re-analysis of the deposited data

Results flagged for a closer look

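A library far from the other 3 of its group, by Dixon's test at 95%, was found in 3 of 34 groups of values, and chance flags about 1 in 20. Sphk1 stood at 17.1 CPM in TGFβ1-treated replicate 1, above the other treated libraries, all at 16.3 CPM, and the log2 fold change without it was 2.38. Plpp3 stood at 0.639 CPM in untreated replicate 2, below the others at 1.17 to 1.25 CPM, and the log2 fold change without it was 0.82. The ratio of Plpp1 to Plpp3 per kilobase was 102 in the same library, against 48.7 to 54.8 in the others.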

How the results depend on the processing

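The 3 members called higher and 2 called lower kept these counts with DESeq2, its size factors within edgeR, edgeR's other test, both other filters, an FDR of 0.01 and the replicate block, and 3 were lower with total counts. With 1 library left out, 3 to 4 were higher and 2 to 3 lower. Of 158 values of members under alternatives, 153 kept direction and call. With 1 library left out, the log2 fold change of S1pr3 ranged from -0.0624 to 0.0125, and it changed sign without TGFβ1-treated replicate 1 (0.00914) and untreated replicate 4; the cause was not tested. The 6 lists held 25 to 27 higher and 16 to 19 lower genes with 1 library left out, and 23 lower with total counts.

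Same-numbered libraries did not deviate together, with correlations from -0.19 to -0.03, and none of the 4 untreated libraries correlated best with its own number. The replicate block gave 5075 higher and 5077 lower genes against 5198 and 5251 without it.

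With the union of all exons as length, S1pr2 held 46.0% of the receptor level in untreated and 42.5% in treated cells, S1pr3 51.8% and 54.7%, and the ratio of Sgpl1 to Sgpp1 was 1.29 and 2.35. With the longest coding transcript the ratio of Sphk1 to Sphk2 was 0.180 and 1.07, and the share of Sphk1 was 15.2% and 51.6%. Depth limits S1pr1 and Spns2, with at most 29 and 14 counts per library.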
